A study of Drosophila melanogaster with 136 samples.

Results

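The genes described here encode cuticle proteins of Drosophila melanogaster, the proteins that pack around chitin fibres to form the exoskeleton and the linings of the tracheae, foregut, hindgut and genital ducts. They were chosen by symbol: the Cpr, Lcp, Ccp84A and Edg series together with Pcp and Acp65Aa. Of 18769 probe sets analysed, 89 belonged to these genes. Of these 83 carried 1 symbol and stood for 81 of the 11982 genes measured, and 6 carried several symbols and name no gene here. Low values were not filtered, so all 81 genes were tested in each comparison.

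The study profiled RNA of 34 groups, 4 arrays each, on Affymetrix Drosophila Genome 2 arrays. All flies and larvae were of the Canton-S strain, with no transgene or treatment. Adult tissues came from flies 7 days old, with the whole fly as the shared reference. They included the carcass (abdominal cuticle), wing, eye, tracheal trunks, hindgut, crop, male ejaculatory duct, accessory gland, spermatheca and thoracic muscle. Larval tissues came from feeding larvae of the third instar: the carcass (what was left once the other organs had been removed), tracheal trunks, hindgut and fat body, with the whole larva as the shared reference, and fat body was also taken from wandering larvae. Each array of flies or larvae held pooled animals, such as 12 females and 12 males for the whole fly, 60 females and 60 males for adult hindgut, 30 larvae for larval carcass and 100 for larval trachea. S2 cells, a line grown from embryos, made 1 further group.

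Most of these proteins share the Rebers and Riddiford consensus, a stretch that binds chitin. The epidermis and the cells of the tracheae, foregut and hindgut secrete cuticle in pulses around each moult under the control of ecdysone, the moulting steroid. Adults do not moult, so an adult of this age carries a finished cuticle, and a feeding larva is thickening the one it wears. Many of the genes lie in tandem clusters named after their cytological band: 50 of the 81 had another of these genes as a direct neighbour. Of the 81 genes 40 lay on chromosome arm 3L, 21 on 2R, 10 on 3R, 6 on 2L and 4 on X.

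Values are signals in linear intensity units, scaled to a trimmed mean, taken over the central 96% of an array's probe sets, of 100.004. A gene was counted as reaching that trimmed mean where its group mean did. Folds are on the scale log2(signal + 10.0004), which compresses differences of dim genes. A gene was called where limma's adjusted p was under 0.05 and the fold was 2 or more. In pooled organs, fewer cells of a type and less RNA per cell cannot be told apart. The labels call most arrays biological replicates, and the p-values measure the spread between these 4 pools per group.

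Labels were checked with marker genes. The summed signal of 3 eye markers was 13429 to 14616 on eye arrays and 242 to 313 in the whole fly, and that of 5 hindgut markers was 1085 to 1209 in adult hindgut against 254 to 266 in the whole fly. The tracheal gene btl, the FGF receptor of tracheal cells, averaged 223 in larval trachea and 8.23 in larval carcass. The other tracheal markers were as high in larval carcass, where all 4 summed to 7581 to 10386, as in larval trachea, with 8065 to 8821. The array labelled thoracic muscle 4 had muscle markers at 144 and redone mated spermatheca 2 had them at 51360, each against the level of its own group. Thoracic muscle 4 had a mean correlation of 0.956 with mated spermatheca and 0.781 with its own group. Redone mated spermatheca 2 had 0.898 with thoracic muscle and 0.769 with its own group. Both were kept under their labels, and an exchange of labels was not tested. Larval trachea, eye and heart were labelled with another amplification kit than the rest, so in their comparisons kit and tissue cannot be told apart. The rest were not all amplified alike. The sample records give 2 rounds of amplification for mated and virgin spermatheca, and in the redone mated group for array 4 only.

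Of the 81 genes 46 reached the trimmed mean in at least 1 of 30 dissected tissues. Most of them were larval: 32 had their highest mean in a larval tissue and 14 in an adult one. Larval tissues alone held 23 of them at that level, adult tissues alone 8, and 15 reached it in both. Of the latter, Cpr72Ec reached it in larval tissue only through a single larval trachea array. Larval carcass was the highest tissue for 19 genes and larval trachea for 12. Adult wing followed with 4 and adult crop with 3. Of the wing genes, Acp65Aa was highest there only through wing array 3. The remaining genes peaked singly in ejaculatory duct, adult carcass, accessory gland, eye, adult trachea, thoracic muscle, adult hindgut and wandering larval fat body. A gene reached the level in a median of 3 tissues. The widest was Cpr67B, in 13, and 10 genes reached it in exactly 1. No share over all genes is given beside these counts of genes reaching the level or of highest tissues. They therefore do not show a trait particular to cuticle genes.

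**Figure D1:**
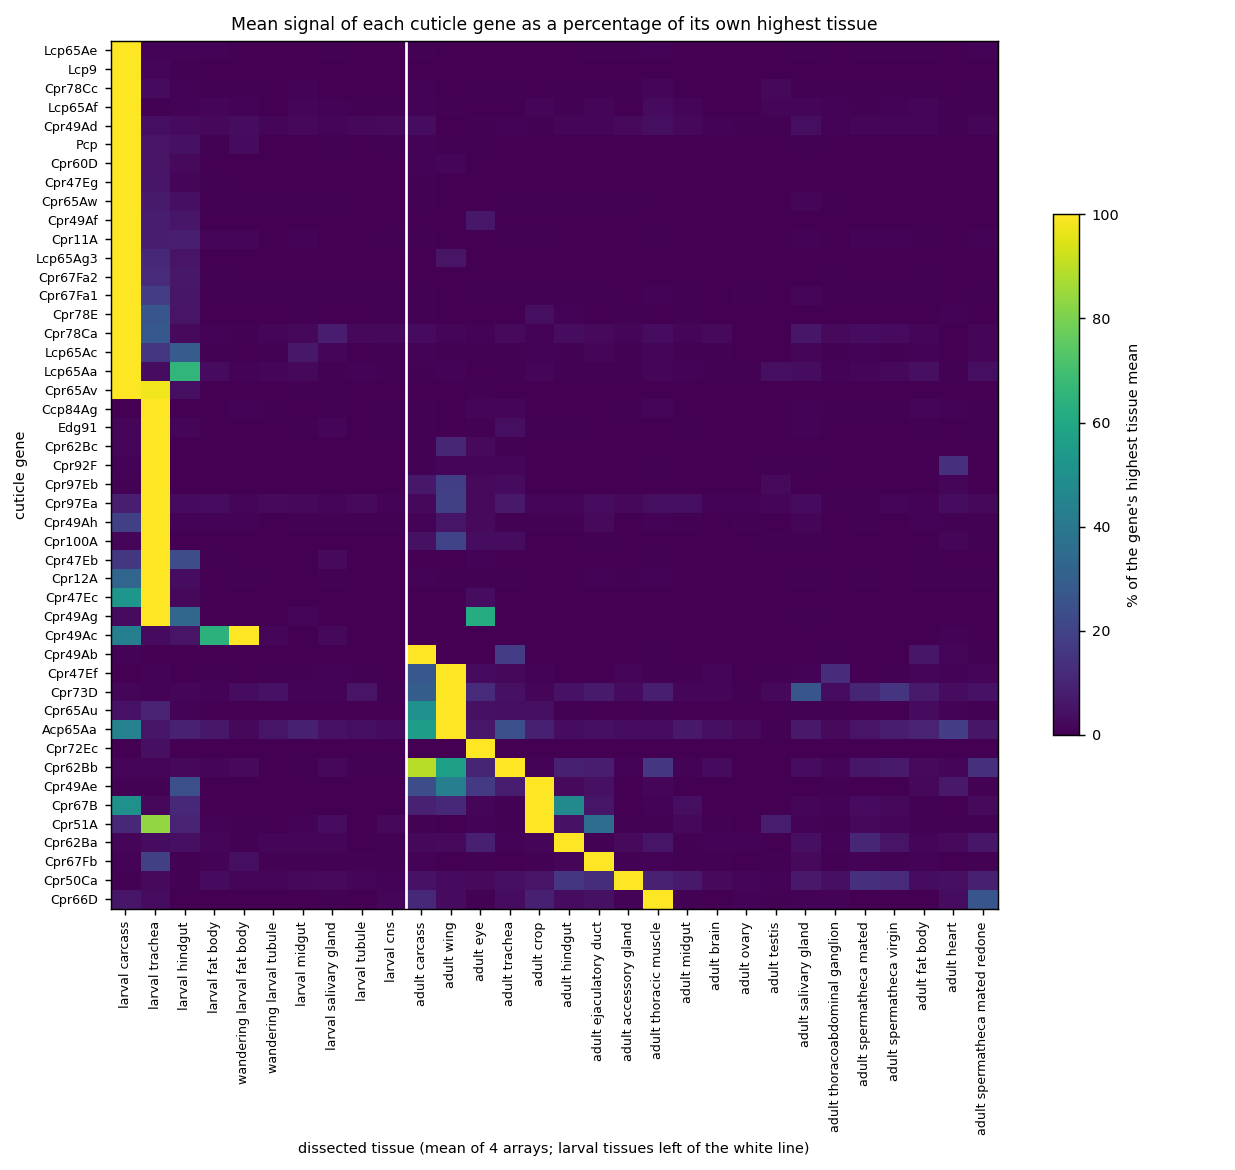
Each row is 1 of the 46 cuticle genes that reached the trimmed mean, each column 1 of the 30 dissected tissues, and the colour gives the mean of 4 arrays as a percentage of that gene's own highest tissue. The rows fall into a block of 19 genes highest in larval carcass, a block of 12 highest in larval trachea, and single genes along the adult tissues.

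The number of cuticle genes at the trimmed mean differed widely between tissues that expressed similar numbers of genes overall. It was 31 in larval trachea (38.3% of the 81, against 32.9% of all genes) and 28 in larval carcass (34.6% against 31.1%), both near the share of all genes. Single arrays held 25 to 30 in larval trachea and 28 to 29 in larval carcass. In larval hindgut they held 12 to 19 and in adult wing 8 to 16. The trachea count included Cpr72Ec, whose mean of 260 there rested on a single array. The share was lower than that of all genes in larval hindgut, with 17 (21.0% against 32.5%), and in the adult tissues that follow. Adult wing had 11 (13.6% against 31.4%), adult carcass 10 (12.3% against 29.3%), eye 7 (8.64% against 31.1%) and crop 5 (6.17% against 31.1%). Adult hindgut, ejaculatory duct and adult trachea had 4 each (4.94% against 29.4% to 31.8%). None reached it in adult brain, ovary, larval midgut, larval tubule, larval central nervous system or S2 cells, which held 27.8% to 38.1% of all genes at that level. The midgut, unlike foregut and hindgut, has no cuticle lining.

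The other 35 genes did not reach the trimmed mean in any dissected tissue. Their highest group mean there was 96.4, for Cpr47Ee in the ejaculatory duct, and their highest single array in any group was 223, for Cpr11B in the whole larva. All 4 genes of band 64A, all 4 of 76B and all 3 of 65E were among them, as were Edg78E and Edg84A, 2 of the 3 genes named for their dependence on ecdysone.

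Larval carcass was set against the whole larva to ask which cuticle genes the body wall carries. Of the 81 genes 27 were higher in the carcass (6.38% of all genes were) and 5 were lower (15.4% of all genes). The median difference was 0.42 on the log2 scale against 0.02 over all genes. Lcp65Ae, a larval cuticle protein, rose by 2.96 ± 0.61 (log2, SE, adjusted p = 0.00268), Pcp by 2.68, Lcp65Af by 2.36, Cpr12A by 1.75, Cpr49Ac by 1.74 and Lcp65Aa by 1.72. Of the 11 genes of band 65A 7 were called higher and none lower.

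Pcp, named as a pupal cuticle protein, gave 2055, 3519, 2826 and 3396 on the larval carcass arrays and 380, 367, 625 and 437 in the whole larva. The groups did not overlap, and the log2 fold was 2.68 ± 0.20 (adjusted p = 1.9e-06). Among the dissected larval tissues other than carcass its highest array was 285, in hindgut.

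Lcp9, another larval cuticle protein, gave 4613, 4679, 3210 and 5494 in larval carcass. The next tissue, larval trachea, gave 75.3, 61.4, 7.22 and 91.5, and the ratio of the means was 76.4. In the whole larva it was 3008 ± 422 (SD, n = 4), and adult carcass stayed at 1.05 to 18.2.

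Lcp65Ae had a larger ratio, 91.1, but it rested on uneven arrays. Its carcass values were 2523, 403, 334 and 538. Lcp65Af behaved alike, with 819, 145, 103 and 185, and so did Lcp65Ac, with 2204, 373, 529 and 572. In all 3 genes array 1 stood several times above the others. Without that array the log2 fold of Lcp65Ae over the whole larva was 2.32 and that of Lcp65Af 1.75, both still called.

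The 5 genes lower in carcass than in the whole larva were Cpr92F (log2 fold -3.18), Cpr100A (-2.48), Cpr11B (-2.46), Cpr62Bc (-2.32) and Cpr31A (-1.35). Cpr31A was not called under quantile normalization (-0.89) or with a constant of 40% of the trimmed mean (-0.63). Of these genes Cpr92F, Cpr100A and Cpr62Bc were highest in larval trachea. Cpr11B had no dissected source: it gave 160, 182, 209 and 223 in the whole larva and 18.9, 14.7, 41.7 and 38.9 in larval carcass, its highest dissected tissue, with no overlap. The opposite order held by mean for Lcp65Ac, 1471 ± 240 in the whole larva and 919 ± 860 in carcass, but there the arrays overlapped.

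In larval trachea 17 of the 81 genes were higher than in the whole larva (10.7% of all genes) and 20 were lower (18.4%). The cuticle of the tracheal tube is known for its spiral folds, the taenidia. Ccp84Ag, of the cuticle gene cluster inside the Antennapedia complex, gave 712, 630, 525 and 536 in larval trachea. No larval carcass, hindgut or whole larva array of Ccp84Ag exceeded 8.42. Its log2 fold over the whole larva was 5.37 ± 0.18 (adjusted p = 4.61e-09).

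Edg91, named as ecdysone-dependent, gave 2629, 2176, 2592 and 2071 in larval trachea and 45.7, 53.3, 44.0 and 49.8 in the whole larva. The log2 fold was 5.35 ± 0.09 (adjusted p = 6.74e-11). Its second tissue was adult trachea, with 72.2, 118, 78.6 and 67.6 against 3.88, 8.59, 2.14 and 13.9 in the whole fly. Its fold over the whole fly was the highest of the 81 genes in adult trachea, at 2.48 ± 0.25 on the log2 scale (adjusted p = 2.2e-05).

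Cpr97Eb rose by 5.28 in larval trachea, Cpr49Ag by 4.37, Cpr67Fb by 4.04 and Cpr62Bc by 3.90, all log2 folds over the whole larva. Lcp9 (-5.71), Cpr11B (-3.78), Lcp65Ac (-3.71), Cpr78Cc (-3.42), Cpr47Eg (-3.34) and Cpr49Af (-3.21) were lowest there. Of the dissected tissues, larval carcass was the highest for all 6. Without larval trachea array 2 the fold of Cpr47Eg was -2.63.

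Carcass and trachea were not simple alternatives. Cpr65Av gave 3405, 1848, 1895 and 3269 in carcass and 2328, 2843, 2523 and 2488 in trachea, and the groups overlapped. Cpr47Ec was at 6122 ± 664 in trachea and 3220 ± 864 in carcass, Cpr12A at 1424 ± 189 and 464 ± 213. One array needs separate mention. Cpr72Ec, a gene of the eye, gave 1026 on larval trachea array 4 and 0.651 to 8.81 on the other 3, and the eye markers summed to 960 on that array and to 46.8 to 54.0 on the others; the part of this in the Cpr72Ec value was not tested.

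Larval hindgut carried fewer of the genes. In it 5 of the 81 were higher there than in the whole larva (6.18% of all genes) and 32 were lower (15.6%). Set directly against larval carcass, 2 were higher in hindgut (8.08%) and 35 lower (6.5%). Lcp9 (-7.12 on the log2 scale), Cpr47Eg (-6.00), Cpr78Cc (-5.81), Cpr60D (-5.16), Lcp65Ae (-5.04) and Cpr65Av (-4.68) had the largest differences. Without larval carcass array 1 that of Lcp65Ae was -4.40.

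The 2 genes higher in hindgut than in carcass both lay in band 49A, with Cpr49Af between them. Cpr49Ae gave 1008, 865, 2064 and 1537 in larval hindgut and 55.6, 32.5, 30.9 and 33.8 in larval carcass, a log2 fold of 4.78 ± 0.26 (adjusted p = 3.01e-07). Cpr49Ag gave 1088, 1316, 1899 and 1195 against 146, 118, 112 and 94.6, a log2 fold of 3.42 ± 0.18 (adjusted p = 2.03e-07). Over the whole larva the hindgut was also higher in Cpr47Eb (1.55), Cpr66Cb (1.56) and Lcp65Aa (1.17), of which Cpr66Cb was not called with a constant of 40% of the trimmed mean (0.79).

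1 cuticle gene was highest in fat body, an organ that makes no cuticle. Cpr49Ac gave 6834, 5009, 6588 and 5567 in the fat body of feeding larvae and 10745, 6376, 9762 and 10468 in that of wandering larvae. Larval carcass had 2558, 4701, 3993 and 4879, below every array of feeding fat body. The 19 genes highest in larval carcass did not accompany it. All 19 stayed below the trimmed mean in both fat body groups, with medians of 7.89 and 6.55 and a highest mean of 90.2, for Pcp in wandering larvae. In adult carcass Cpr49Ac was at 4.63 ± 1.23.

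Adult carcass was set against the whole fly in the same way. It was higher in 15 of the 81 genes (10.4% of all genes) and lower in 4 (25.4%). The median of the 81 genes was 0.18 against -0.22 over all genes. In the 7 comparisons of an adult tissue with the whole fly, 24.9% to 29.4% of all called genes were higher in the tissue, and 46.0% to 48.7% after quantile normalization, which also left fewer cuticle genes lower. Cpr49Ab gave 3453, 3346, 3051 and 2952 in adult carcass and 237, 252, 191 and 114 in the whole fly, a log2 fold of 4.00 ± 0.20 (adjusted p = 3.94e-08). Adult wing stayed at 1.48 to 13.4, the head mean was 5.64 ± 5.52 and the eye stayed at 0.282 to 1.39. Among adult tissues with an external cuticle, high Cpr49Ab was thus measured in the abdomen and not in wing, head or eye.

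Cpr65Au (2.59), Cpr62Bb (2.59), Cpr47Ef (2.47), Cpr49Ae (2.45) and Acp65Aa (2.34) followed in adult carcass, as log2 folds over the whole fly. The genes with the largest decrease were Cpr72Ec (-2.39), Cpr51A (-1.76) and Cpr67Fb (-1.24), which were highest in eye, crop and ejaculatory duct. Cpr51A and Cpr67Fb were not called under quantile normalization (-0.97 and -0.47) or with a constant of 40% of the trimmed mean (-0.91 and -0.66), and Cpr67Fb was not called without adult carcass array 1 (-0.88).

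In adult wing 17 of the 81 genes were higher than in the whole fly (11.3% of all genes) and 6 were lower (27.3%). Cpr65Au, a gene of the 65A band, gave 6384, 7643, 6305 and 5755 in wing, 3616, 3291, 3204 and 3001 in adult carcass, and 615, 493, 489 and 552 in the whole fly. Wing and carcass did not overlap. Cpr47Ef gave 776, 814, 768 and 849 in wing, 169, 240, 259 and 201 in adult carcass and no more than 41.9 in the whole fly, a log2 fold of 4.32 ± 0.12 over the latter (adjusted p = 5.34e-10). Another probe set of Cpr47Ef was dim throughout, at 14.0 ± 5.15 in wing, so the result holds for 1 of its 2 probe sets. Cpr73D gave 371, 433, 344 and 423 in wing and 118, 123, 119 and 100 in carcass.

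Of the 81 genes 7 were higher in wing than in adult carcass, near the share of all genes (10.2%), and 4 were lower (9.01%). The latter count was 13 with a constant of 2% of the trimmed mean. Cpr49Ab had the largest difference (-7.82 on the log2 scale). Lcp65Ag3, a larval cuticle protein, was higher in wing, with 190, 190, 165 and 261 against 6.75, 19.0, 16.3 and 16.3 in adult carcass (log2 fold 3.11 ± 0.19, adjusted p = 1.24e-07). Its larval carcass mean was 3872 ± 815.

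Wing array 3 stood apart in cuticle genes. Cpr62Bc gave 79.2, 87.7, 1444 and 145, Cpr100A gave 105, 106, 1797 and 186, and Acp65Aa, an adult cuticle protein, gave 49.9, 64.8, 685 and 71.1. Together 8 of the 81 genes were at least 4-fold above each of the other 3 wing arrays there (9.88%), against 25 genes in all (0.209%). On wing arrays 1, 2 and 4 none of the 81 met that condition. The other 17 genes included kkv (150 against 7.26 to 12.7), the chitin synthase of epidermis and trachea, Cht7 (244 against 17.3 to 24.4), a chitinase, and the cuticle genes Vajk2 and Vajk3. Muscle genes rose on the same array: fln, a flight muscle protein, was at 1312 against 82.7 to 123. The summed tracheal markers were 2895 against 621 to 832, the muscle markers 4147 against 660 to 1172, and the epidermal markers 2127 against 1676 to 1946; the part of these in the cuticle values was not tested.

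**Figure D2:**
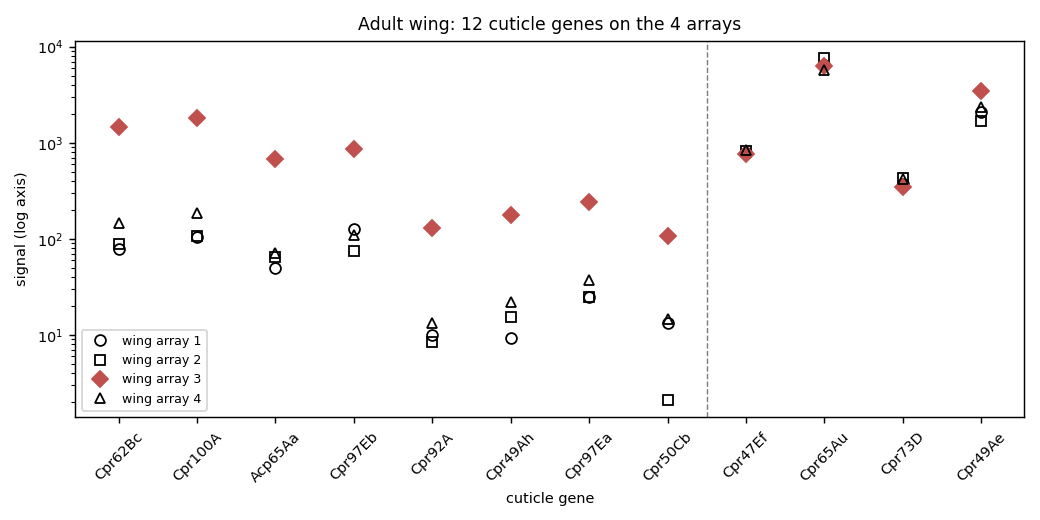
Signal of 12 cuticle genes on the 4 adult wing arrays, on a log axis, with array 3 as a filled red diamond. The 8 genes left of the dashed line were at least 4-fold higher on array 3 than on every other wing array, while Cpr47Ef, Cpr65Au, Cpr73D and Cpr49Ae at the right were not.

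Results on wing that rest on array 3 changed in size without it. The log2 fold of Cpr62Bc over the whole fly went from 2.94 to 2.01, that of Cpr100A from 2.75 to 1.82, that of Cpr62Bc over adult carcass from 2.81 to 1.88 and that of Cpr97Ea over adult carcass from 1.73 to 1.05. All 4 folds remained called. The wing mean of Acp65Aa fell from 218 to 61.9, below its adult carcass mean of 121. Cpr97Ea was not called with a constant of 40% of the trimmed mean (0.99), with no variance trend (1.73), without wing array 4 (1.86) and without adult carcass array 2 (1.54) or 4 (1.58). Leaving out wing array 3 gave 16 genes higher and 7 lower than the whole fly.

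The eye preparation included the corneal cuticle. In it 11 of the 81 genes were higher than in the whole fly (12% of all genes) and 8 lower (28.9%). Cpr72Ec gave 6271, 5738, 6581 and 7057 in eye and 88.6, 51.6, 79.4 and 53.3 in the whole fly, a log2 fold of 6.39 ± 0.15 (adjusted p = 2.48e-11). Head arrays, which include the eye, gave 1010 to 1985. Cpr49Ag gave 2240, 2735, 3150 and 2263 in eye and 14.2 to 25.7 in the whole fly, a log2 fold of 6.49 ± 0.14 (adjusted p = 1.67e-11). This gene was highest in larval trachea, with 4388, 4066, 4160 and 4116, yet stayed at 0.619 to 10.4 in adult trachea.

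Other larval genes appeared in eye at lower levels. Cpr49Af, the neighbour of Cpr49Ag, gave 152, 211, 244 and 143 in eye and no more than 11.7 in the whole fly. Cpr47Ec gave 445, 205, 96.5 and 43.3, uneven values that all lay above the highest whole fly array, 5.67. Cpr49Ab (-4.23), Cpr67Fb (-1.67) and Ccp84Ae (-1.63) had the largest decreases. Under quantile normalization those of Cpr67Fb (-0.57) and Ccp84Ae (-0.74) were no longer called, nor with a constant of 40% of the trimmed mean (-0.87 and -0.75).

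In adult trachea 6 of the 81 genes were higher than in the whole fly (7.41%), near the share of all genes (9.51%). Another 7 were lower (8.64%, against 26% of all genes). Its tracheal markers summed to 712 to 1623, against 8065 to 8821 in larval trachea. Cpr62Bb gave 138, 1217, 263 and 113, so that 1 array held most of it. Its log2 fold was 2.11 ± 0.60 (adjusted p = 0.0158), and 1.40 without array 2. Cpr49Ab, the abdominal gene, gave 51.6, 17.4, 367 and 1859, and fat body markers were at 15834 on array 4 against 6599 to 9571 on the others; the part of this in Cpr49Ab was not tested.

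Crop, part of the foregut, and hindgut both have a cuticle lining. Crop was higher than the whole fly in 5 of the 81 genes (10.1% of all genes) and lower in 11 (27.1%), adult hindgut higher in 4 (10.1%) and lower in 9 (26%). Cpr67B, the gene with the widest range, gave 4880, 6108, 6072 and 6509 in crop, 2998, 2698, 2625 and 2906 in adult hindgut, and 175, 233, 201 and 246 in the whole fly. Its log2 fold was 4.72 ± 0.12 in crop and 3.66 ± 0.10 in hindgut (adjusted p = 2.91e-11 and 8.06e-11).

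In crop Cpr51A and Cpr49Ae were also high. Cpr51A gave 1809, 2543, 2299 and 2205 there, a log2 fold of 5.15 ± 0.10 over the whole fly (adjusted p = 6.4e-12). Cpr49Ae gave 4607, 5878, 5900 and 5954, a log2 fold of 4.60. Cpr78E, a larval carcass gene, gave 181, 176, 184 and 177 in crop.

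Cpr62Ba was measured at high level in adult hindgut, with 272, 239, 194 and 214 against 1.02 to 3.90 in the whole fly. Its next tissue was mated spermatheca at 24.6 ± 6.45. Larval hindgut was low, at 12.8, 5.82, 12.0 and 8.66. The log2 fold of adult hindgut over the whole fly was 4.31 ± 0.13 (adjusted p = 1.93e-10).

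The male ejaculatory duct is lined by cuticle. There 4 of the 81 genes were higher than in the whole fly (9.27% of all genes) and 7 lower (28%). Cpr67Fb gave 2013, 1384, 2501 and 2664 in the duct and 39.5 to 58.1 in the whole fly, a log2 fold of 5.17 ± 0.19 (adjusted p = 1.14e-09). Its second tissue was larval trachea, at 409 ± 31.9. Cpr51A gave 811, 1076, 573 and 709. Cpr47Ee was at 96.4 ± 22.5, a log2 fold of 1.99. In the accessory gland, which also belongs to the male tract, Cpr50Ca gave 114, 115, 131 and 120, and its next tissue was adult hindgut at 19.1 ± 3.57. The sample records list 25 females and 25 males for each accessory gland array, which conflicts with a male organ. What was pooled there cannot be settled from the records.

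Cpr66D was highest in thoracic muscle by mean, but its arrays disagreed. The values were 1298, 917, 999.6 and 7.00 on the arrays labelled thoracic muscle, and 1.69, 859, 2.55 and 0.539 on those labelled redone mated spermatheca. The low muscle array and the high spermatheca array were those whose muscle markers went against their labels. Without muscle array 4 the mean of Cpr66D was 1072, and without spermatheca array 2 it was at 1.59 ± 1.01 in the redone group. Cpr92F in adult heart was similar in form, with 795 on array 3 and 0.260 to 4.06 on the others.

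**Figure D3:**
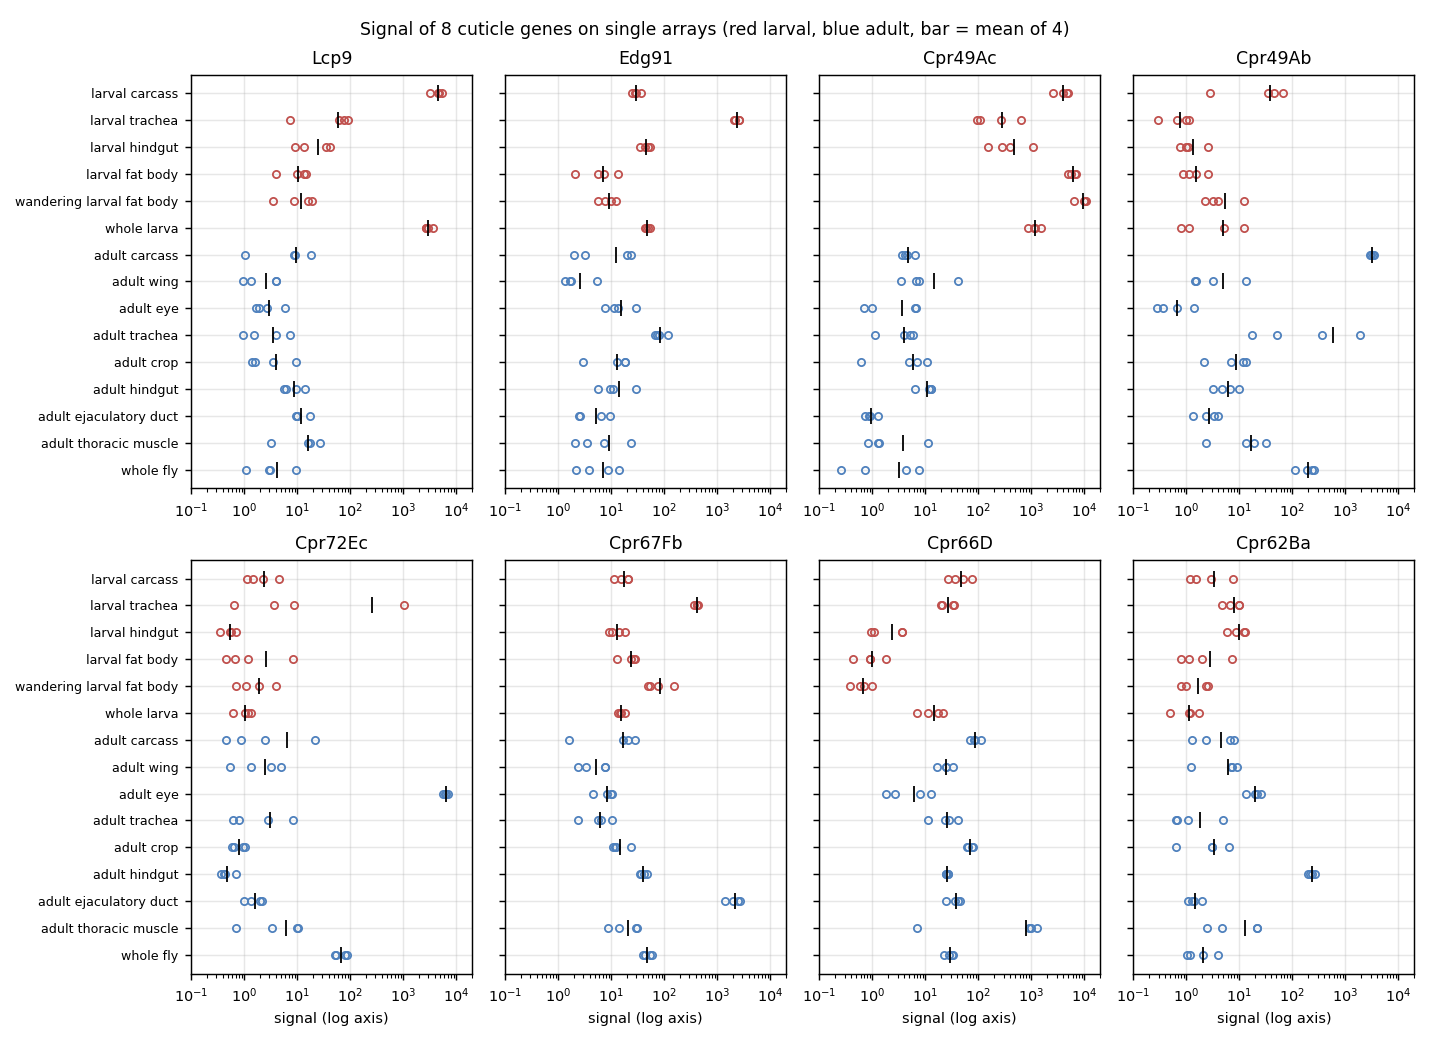
Signal of 8 cuticle genes on single arrays of 15 groups, on a log axis, with circles for arrays (red for larval, blue for adult groups) and a bar for the mean of 4. Each gene is high in 1 or a few tissues, and single arrays stand far from their group for Cpr72Ec in larval trachea, Cpr49Ab in adult trachea and Cpr66D in thoracic muscle.

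Larvae were then set against adults. In the whole animal 35 of the 81 genes were higher in larvae (9.86% of all genes) and 11 in flies (20.1%), with a median of 0.40 against -0.22 over all genes. Larval carcass was higher than adult carcass in 31 (10%) and lower in 9 (11.4%), with a median of 0.48 against -0.05. Larval trachea was higher than adult trachea in 35 (12.6%) and lower in 5 (13.2%), with a median of 0.55 against -0.03. Larval hindgut was higher than adult hindgut in 21 (6.18%) and lower in 7 (6.86%), with a median of 0.13 against a median of all genes close to 0. The tracheal groups also differed in amplification kit, and the summed tracheal markers given above were lower in adult than in larval trachea. Stage, kit and the tracheal content of the preparation cannot be told apart there.

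The adult means behind the largest of these differences were at most 12.7, close to or below the added constant of 10.0004, so the size of the fold depends on it. In the whole animal Lcp9 rose by 7.76 ± 0.16 on the log2 scale and Cpr78E by 7.12. In carcass Cpr49Ac rose by 8.07 ± 0.18, Lcp9 by 7.91 and Cpr47Ec by 7.83. In trachea Cpr47Ec rose by 8.65 ± 0.17, Cpr49Ag by 8.26 and Cpr47Eb by 8.22. In hindgut Cpr49Ag rose by 5.90 ± 0.16, Cpr47Eb by 5.68 and Lcp65Aa by 5.24.

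A smaller group went the other way. In carcass Cpr49Ab (-6.34), Cpr49Ae (-4.73), Cpr62Bb (-4.69), Cpr47Ef (-4.24), Cpr65Au (-3.30) and Cpr73D (-2.92) were the most adult. Larval carcass values of Cpr65Au were 312, 308, 297 and 384, against 3001 to 3616 in adults. In trachea Cpr49Ab (-4.11 ± 1.09), Cpr62Bb (-4.08) and Cpr49Ae (-3.97) were lower in larvae. Without adult trachea array 4 the fold of Cpr49Ab was -3.00, without array 2 it was -5.03, and without array 2 that of Cpr62Bb was -3.37. With a constant of 40% of the trimmed mean Cpr49Ab was not called (-2.63, limma adjusted p = 0.0555). In hindgut Cpr62Ba (-3.60) and Cpr67B (-2.01) led.

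**Figure D4:**
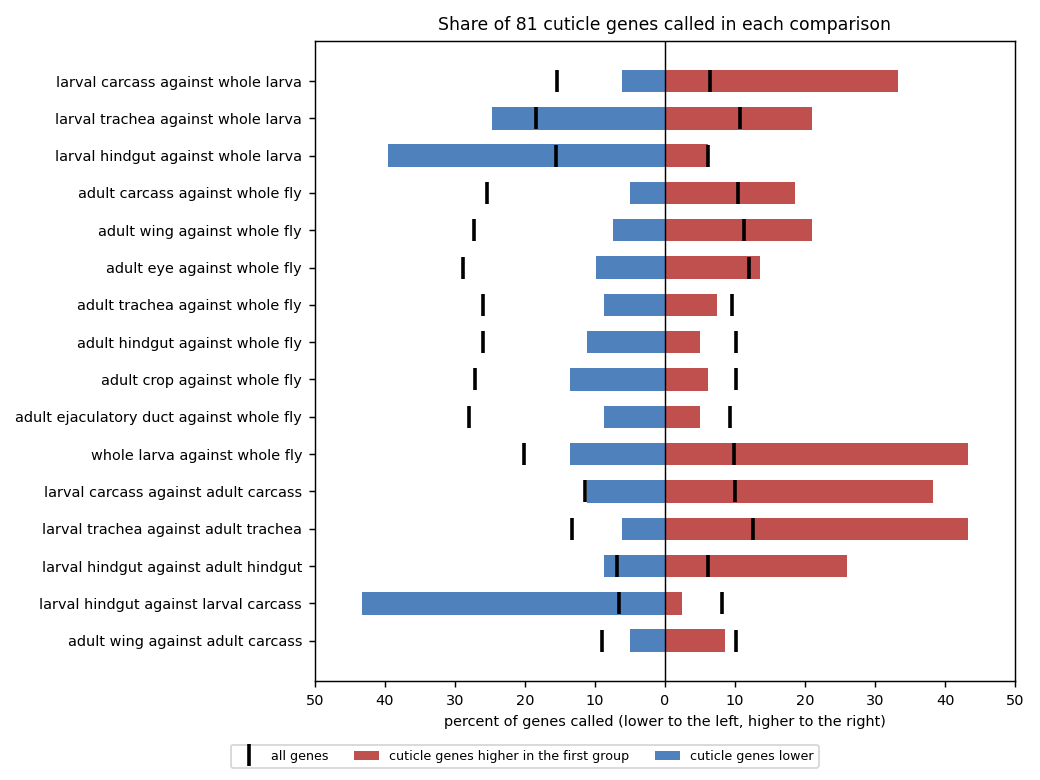
Bars give the percentage of the 81 cuticle genes called higher (red, to the right) and lower (blue, to the left) in the first group of each of 16 comparisons, and black ticks give the same percentage over all genes. The larva against adult comparisons reach 25.9% to 43.2% to the right, and larval hindgut against larval carcass reaches 43.2% to the left.

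The stage difference was then compared between carcass and hindgut by its interaction. The log2 fold of larva over adult, with its sign, was higher in carcass than in hindgut in 27 of the 81 genes (8.49% of all genes) and lower in 10 (10.7%). Lcp9 had a log2 stage difference of 7.91 in carcass and 0.78 in hindgut, where it was not called, and the 2 differed by 7.13 ± 0.43 (adjusted p = 3.22e-10). Cpr78Cc (5.62), Cpr47Eg (5.33), Cpr78E (5.23), Lcp65Ae (4.83) and Cpr47Ec (4.64) followed. Without larval carcass array 1 that of Lcp65Ae was 4.19.

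Cpr49Ae and Cpr67B changed with stage in opposite directions in the 2 organs. Cpr49Ae was at 38.2 ± 11.7 in larval and 1310 ± 483 in adult carcass, but at 1369 ± 546 in larval and 136 ± 30.7 in adult hindgut. Its interaction was -7.92 ± 0.38 (adjusted p = 1.89e-11). Cpr67B, singled out after its values were seen, was the reverse: 2954 ± 220.2 in larval and 551 in adult carcass, and 690 ± 35.4 in larval and 2807 ± 174 in adult hindgut. Its interaction was 4.42 ± 0.13 (adjusted p = 5.64e-14). Both genes had 4 arrays per group without overlap in either organ.

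**Figure D5:**
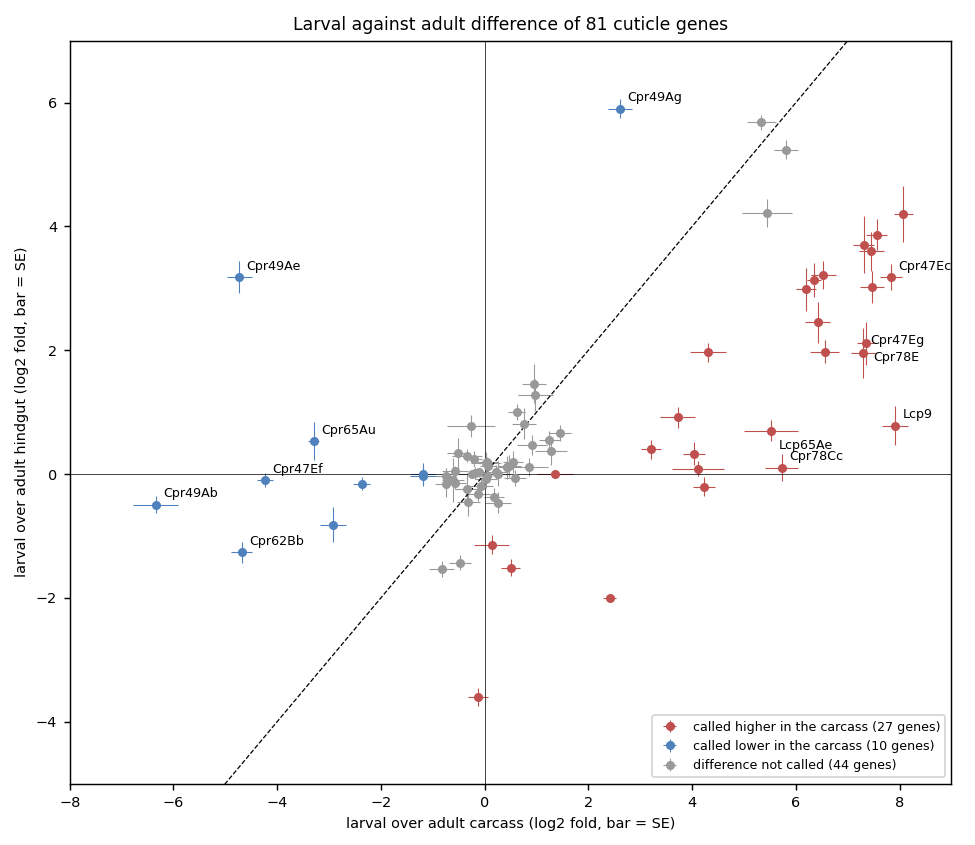
Each point is 1 of the 81 cuticle genes, with its log2 fold of larval over adult carcass on the horizontal axis and of larval over adult hindgut on the vertical axis, bars giving the SE. The 27 genes in red and the 10 in blue differ between the organs by the interaction test, and Cpr49Ae at the upper left was higher in adult than larval carcass and in larval than adult hindgut.

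Members of 1 tandem cluster did not all share a tissue. In band 65A of arm 3L, 7 of 11 genes were highest in larval carcass (Lcp65Aa, Lcp65Ac, Lcp65Ae, Lcp65Af, Lcp65Ag3, Cpr65Av and Cpr65Aw). Cpr65Au and Acp65Aa were highest in adult wing, and Lcp65Ad and Cpr65Az stayed below the trimmed mean. Acp65Aa overlapped adult carcass, and without wing array 3 its wing mean of 61.9 was below the carcass mean of 121. Band 49A of arm 2R was the most divided: its 7 genes that reached the level were highest in 5 different tissues. They were larval carcass for Cpr49Ad and Cpr49Af, larval trachea for Cpr49Ag and Cpr49Ah, adult carcass for Cpr49Ab, crop for Cpr49Ae and wandering fat body for Cpr49Ac. In band 67F Cpr67Fa1 and Cpr67Fa2 were highest in larval carcass, at 2147 ± 729.8 and 2650.0 ± 713, and Cpr67Fb in the ejaculatory duct. The 3 genes of 62B were highest in adult hindgut (Cpr62Ba), adult trachea (Cpr62Bb, overlapping adult carcass) and larval trachea (Cpr62Bc).

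Of 33 pairs of members that are direct neighbours on the chromosome, 13 had both genes at the level. In 5 of the 13 (38.5%) the highest tissue was the same, against 23.8% of all 1035 pairs of such members. Their Pearson r over the 30 tissues had a median of 0.54 and ranged from 0.17 to 0.97, against a median of 0.36 for all pairs. Genes of a pair were measured on the same arrays and are not independent, so this is a description. The highest were Cpr67Fa1 with Cpr67Fa2 and Lcp65Af with Lcp65Ae, both at 0.97. Whether probes of such close copies also bind each other's RNA was not tested.

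Genes that build and harden cuticle were described as lists chosen with earlier results of these data known. Of 16 measured genes of chitin synthesis and assembly, 13 were higher in larval carcass than in the whole larva (6.38% of all genes) and 2 lower (15.4%), with a median log2 fold of 1.64 against 0.02 over all genes. The largest increases were Cht5 (2.35), exp (2.13), Cht2 (2.09) and Cht10 (2.08), of which the Cht genes encode chitinases. Cda9, a chitin deacetylase, was the largest decrease (-5.83). Larval over adult, 13 rose and 0 fell in carcass and in trachea, and 11 rose and 0 fell in hindgut (10%, 12.6% and 6.18% of all genes rose, 11.4%, 13.2% and 6.86% fell), with medians of 4.48, 4.71 and 1.90. In carcass kkv rose by 6.36 on the log2 scale and Cht10 by 6.78. Larval hindgut against larval carcass gave 12 lower (6.5% of all genes) and 1 higher (8.08%). That 1 was Chs2, the chitin synthase of the gut (4.91).

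The tanning list holds 12 measured genes of the pathway that cross-links and colours cuticle through dopamine. In adult wing 8 were higher than in the whole fly (11.3% of all genes) and 0 lower (27.3%), with a median of 1.62 against -0.29 over all genes. The yellow-e gene (5.30), Ddc (4.08), which makes dopamine, Pu (3.94) and stw (3.63), a laccase, led. Larval carcass over adult carcass split into 5 higher (10% of all genes) and 3 lower (11.4%), stw at 4.03 and yellow-f2 at -4.19.

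Other families of cuticle proteins were measured in 39 genes, the Twdl, obst and Vajk series with Gasp and resilin. In the whole larva 13 were higher than in the whole fly (9.86% of all genes) and 3 lower (20.1%), with a median of 0.19 against -0.22 over all genes, led by Vajk3 (6.47), Vajk2 (6.17), obst-I (5.49) and obst-J (5.17). In larval carcass 6 were higher than in the whole larva (6.38% of all genes) and 6 lower, the same share as of all genes (15.4%). The lowest were obst-J, obst-I, obst-F and obst-G (-5.72 to -4.39). TwdlS rose by 5.45 in the ejaculatory duct, where Cpr67Fb was high, and TwdlT by 3.52 in adult hindgut, where Cpr62Ba was high.

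Of 11 measured ecdysone response factors 6 were higher in larval than in adult carcass (10% of all genes) and 2 lower (11.4%), with a median of 1.15 against -0.05 over all genes. In trachea 2 were higher (12.6%) and 2 lower (13.2%), with a median of -0.17, in hindgut 2 were higher (6.18%) and 2 lower (6.86%), with a median of 0.41, and in the whole animal 4 were higher (9.86%) and 3 lower (20.1%), with a median of -0.28. The br gene, a zinc finger factor of the larval to pupal switch, rose by 6.73 in carcass, 5.25 in trachea and 6.27 in hindgut. Eip93F, a factor of metamorphosis, was the reverse (-3.36, -5.87 and -3.24).

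The 6 probe sets shared by several symbols followed the same tissues. Of 4 shared by pairs of members, 1 was highest in larval trachea (806 ± 139) and 3 in larval carcass (1583 to 4269). The other 2, shared with another gene, were highest in larval carcass at 1999 ± 122 and 63.9 ± 9.19.

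In the groups given here cuticle genes varied more between arrays of 1 group than all genes did, though by little in adult head. The median SD over the 4 arrays, on the log2 scale and over genes at the trimmed mean, was 0.46 for cuticle genes against 0.13 for all genes in larval trachea. In larval carcass it was 0.42 against 0.20, in larval hindgut 0.56 against 0.13, in adult wing 0.42 against 0.11 and in the whole larva 0.20 against 0.11. Eye had 0.353 against 0.133, adult carcass 0.244 against 0.136, crop 0.181 against 0.098 and adult head 0.155 against 0.138. The wing value includes array 3.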

How the data were processed

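RNA was labelled and hybridised to 136 arrays, 34 groups of 4, grouped by title. The deposited values are linear signal intensities, 1 per probe set. Their trimmed means of 100.002 to 100.006 show that the authors scaled the arrays. Software and background correction are not given in the sources used here. Depth does not apply to arrays, and 4 arrays per group limit the precision.

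Each array was rescaled to a trimmed mean of 100.004 (2% trimmed at each end), 10.0004 was added and log2 taken. Control probe sets (183) were left out. Of the other probe sets 13647 carried 1 symbol in the platform annotation, 402 several, and 4720 were not listed. A gene took its brightest probe set. Symbols were placed on chromosome arms with RefSeq gene tables. The 16 comparisons used limma 3.58.1 (R 4.3.3; lmFit and eBayes with a variance trend) on the 2 groups, and the interaction used 4 groups. Benjamini-Hochberg adjustment covered all 18769 probe sets. The code was tested on simulated data.

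Members, lists and tests were chosen with earlier results of these data known. Folds were named by rule: up to 6 genes per direction with the largest change among those called whose groups did not overlap. Overlap was not assessed for the interaction, where the called genes with the largest values were named. For each tissue, up to 4 genes highest there were named by the ratio to the next tissue, and clusters were described whole. Other genes named for their array values or overlap were chosen after these were seen. Alternatives were the values as deposited, quantile normalization, constants of 2% and 40% of the trimmed mean, a filter at the 40th percentile, no variance trend, 1 fit of all groups, the mean of probe sets, a replicate block, and leaving out each array.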

Additional observations from a re-analysis of the deposited data

Results flagged for a closer look

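Of 97 sets of 4 arrays of named cuticle genes, 10 (10.3%) held an array far from the other 3 by Dixon's criterion. Its rate of about 1 in 20 is for independent normal values. These were linear signals and the sets shared arrays, so no excess over chance can be read from the share. Wing array 3 accounted for 3 of them, with Acp65Aa at 685, Cpr100A at 1797 and Cpr62Bc at 1444. Larval carcass array 1 gave Lcp65Ae at 2523 and Lcp65Af at 819, and larval carcass array 4 gave Cpr65Au at 384 against 297 to 312. Cpr62Bb was at 1217 on adult trachea array 2 against 113 to 263. Cpr60D was at 2019 on whole larva array 2 against 1519 to 1546. Cpr49Ae was low on crop array 1, at 4607 against 5878 to 5954, and high on eye array 3, at 1118 against 886 to 909.

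The difference between larva and adult differed between carcass and hindgut, by the interaction in limma, in 12 named genes. The log2 fold of larva over adult, with its sign, was higher in carcass than in hindgut for Lcp9 (7.13 on the log2 scale), Cpr78Cc (5.62), Cpr47Eg (5.33), Cpr78E (5.23), Lcp65Ae (4.83) and Cpr47Ec (4.64). The signed fold was lower in carcass for Cpr49Ae (-7.92), Cpr49Ab (-5.85), Cpr47Ef (-4.14), Cpr65Au (-3.83), Cpr62Bb (-3.42) and Cpr49Ag (-3.29). What lies behind these differences was not tested.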

How the results depend on the processing

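Of 306 counts of cuticle genes called under alternatives that kept all arrays, 277 stayed within 1.5 times of the reported count and 29 did not; the cause was not tested. Under quantile normalization the number lower than the whole fly was 1 in adult carcass, 2 in wing, 3 in eye, 4 in adult trachea, 3 in adult hindgut, 4 in crop, 3 in ejaculatory duct and 4 in the whole larva, and 8 were higher in ejaculatory duct. With the constant at 2% of the trimmed mean, 17 were lower in wing and 19 in crop, 8 were higher in adult hindgut and 13 in ejaculatory duct, and 13 were lower in wing than in adult carcass. With it at 40%, the number lower than the whole fly was 1 in adult carcass, 3 each in wing, eye, adult trachea, adult hindgut, ejaculatory duct and the whole larva, and 4 in crop. At 40% the number higher was 6 in eye and 2 each in adult trachea and adult hindgut, 2 were lower in larval than adult trachea and 2 in larval than adult hindgut, and wing against adult carcass gave 4 higher and 1 lower. Leaving out 1 array at a time moved 2 of 288 counts, both without whole fly array 4: genes lower in adult trachea ranged from 5 to 12 and in adult hindgut from 7 to 14. No alternative reversed any of 183 named folds; 42 lost their call at 40%, 26 under quantile normalization and 4 with the mean of probe sets, 1 with no variance trend and 1 in the fit of all groups. Folds moved by over 1.5 times in 127 of the 183 at 40%, 96 at 2%, 48 under quantile normalization and 9 with the mean of probe sets. Same-numbered arrays did not deviate together, with 0 of 16 comparisons showing every correlation above 0.1. The replicate block kept 183 of 183 calls and moved no count of cuticle genes by over 1.5 times. Array number and probe brightness limit what can be called for dim genes.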
